A study of Mus musculus with 9 samples.

Results

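The imprinted genes H19, Igf2, Peg3, Mest, Meg3, Cdkn1c, Snrpn, Igf2r, Grb10 and Plagl1 were followed in mouse embryonic stem cells kept for 7 days with a nitric oxide donor, without the cytokine LIF, or with it. A probe set, a group of short oligonucleotides on the array that is read as 1 value, was taken where its single gene symbol in the platform annotation was 1 of these 10. That gave 29 of the 45101 probe sets on the array, and 9 of the 10 genes had at least 1. H19 had none of its own, because its probe set also carries the symbol Mir675, so its level is not given here. Of the 29 probe sets, 24 were bright enough to be tested, among 29811 tested in all, and each of the 9 genes had at least 1 of these. The 5 that were not tested were 2 of Peg3 and 1 each of Igf2, Grb10 and Plagl1.

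The cells were D3-pOct4, a line of mouse embryonic stem cells grown in serum. Cells of the DETA/NO group had 2 µM of the nitric oxide donor DETA/NO and no LIF, cells of the no LIF group had neither, and cells of the LIF group had 1000 U/ml of LIF. Each group had 3 arrays, replicates 1, 2 and 3, at passages 31, 33 and 34. The labels do not say how far the replicates were separate cultures, so p-values measure only the spread between these arrays. All 9 arrays came from 1 cell line, and RNA was read in bulk, so fewer cells with a transcript and less of it per cell cannot be told apart.

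Several arrays stood apart or went against their labels. Socs3, a direct target of LIF signalling, had a signal of 282 on LIF replicate 2, against 3213 and 1794 on the other LIF arrays, and 3054 on no LIF replicate 2, against 102 and 330 on the other no LIF arrays. DETA/NO replicate 3 and no LIF replicate 1 were the most alike pair of all (r = 0.977 over log2 signals), and are called the alike pair here. DETA/NO replicates 1 and 2 and LIF replicate 1 were brighter, with a median signal above 20 each. The number of arrays limits the precision of every value.

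Imprinted genes are read from the copy inherited from 1 parent, because the copies carry different methylation marks laid down in the egg and the sperm. The marked regions must keep their methylation through the early embryo, and the zinc finger proteins ZFP57 and ZFP445 with their partner TRIM28 guard it there. Many of the genes act on the growth of the fetus and placenta, with paternally read growth promoters such as Igf2 and Peg3 and maternally read restrainers such as Cdkn1c, Igf2r and Grb10. Embryonic stem cells are known for gaining and losing imprints in culture. Array signals do not say from which parent's copy a transcript came.

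Promoters of 4 members are shown because Peg3, Plagl1 and Meg3 followed each other over the arrays and Igf2 varied most. They are RefSeq windows of build GRCm38.p6, from 250 bases before to 50 after a transcription start, and where a gene had several starts, the window richest in CG pairs is given. Peg3 lies at chr7:6730370-6730669 (minus strand), Plagl1 at chr10:13090582-13090881 (plus strand), Meg3 at chr12:109540746-109541045 (plus strand) and Igf2 at chr7:142658755-142659054 (minus strand). Capitals mark the hexamer TGCCGC, the core of the sequence that ZFP57 binds when methylated, or GCGGCA, the same letters read on the other strand.
Peg3: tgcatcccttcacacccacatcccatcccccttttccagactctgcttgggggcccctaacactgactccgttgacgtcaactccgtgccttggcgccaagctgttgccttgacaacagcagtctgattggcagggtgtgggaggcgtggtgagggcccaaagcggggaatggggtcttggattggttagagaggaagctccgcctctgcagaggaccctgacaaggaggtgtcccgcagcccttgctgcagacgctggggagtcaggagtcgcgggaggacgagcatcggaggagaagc
Plagl1: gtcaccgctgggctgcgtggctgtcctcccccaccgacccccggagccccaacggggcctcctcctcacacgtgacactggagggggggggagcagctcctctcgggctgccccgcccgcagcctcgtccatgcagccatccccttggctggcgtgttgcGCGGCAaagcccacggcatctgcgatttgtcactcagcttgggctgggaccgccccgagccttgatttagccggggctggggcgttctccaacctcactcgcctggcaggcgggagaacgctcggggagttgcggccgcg
Meg3: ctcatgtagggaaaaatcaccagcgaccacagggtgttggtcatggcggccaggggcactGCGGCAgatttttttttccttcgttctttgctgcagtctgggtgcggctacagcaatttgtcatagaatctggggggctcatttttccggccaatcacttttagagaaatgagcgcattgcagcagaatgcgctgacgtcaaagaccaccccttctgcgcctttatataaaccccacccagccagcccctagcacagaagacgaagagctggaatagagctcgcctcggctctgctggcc
Igf2: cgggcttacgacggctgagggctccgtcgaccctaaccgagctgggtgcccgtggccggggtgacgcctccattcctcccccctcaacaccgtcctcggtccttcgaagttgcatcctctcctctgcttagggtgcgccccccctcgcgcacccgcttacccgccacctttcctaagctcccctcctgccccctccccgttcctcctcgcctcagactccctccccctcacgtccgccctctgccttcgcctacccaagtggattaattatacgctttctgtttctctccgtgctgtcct
The hexamer was found on either strand in 11.6% of all 32851 RefSeq promoter windows. Plagl1 and Meg3 each held it once and the windows of Peg3 and Igf2 held none, which says only that these letters are not in those 300 bases. The windows held 13 CG pairs in Peg3, 26 in Plagl1, 13 in Meg3 and 24 in Igf2, against a median of 7 over all windows.

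No imprinted gene differed between the 3 conditions beyond the spread of the arrays. The test was limma's moderated test on log2(signal + 3), with p-values adjusted after Benjamini and Hochberg across the 29811 tested probe sets and a threshold of 0.05. It called 0 of 24 member probe sets in each of the 3 comparisons, and also 0 of all 29811 (0.0%). At an unadjusted p under 0.05 it found 1 member and 1.54% of all probe sets for no LIF against LIF. DETA/NO against no LIF had 4 members and 5.02% of all at that level, and DETA/NO against LIF had 0 members and 1.94% of all.

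**Figure D1:**
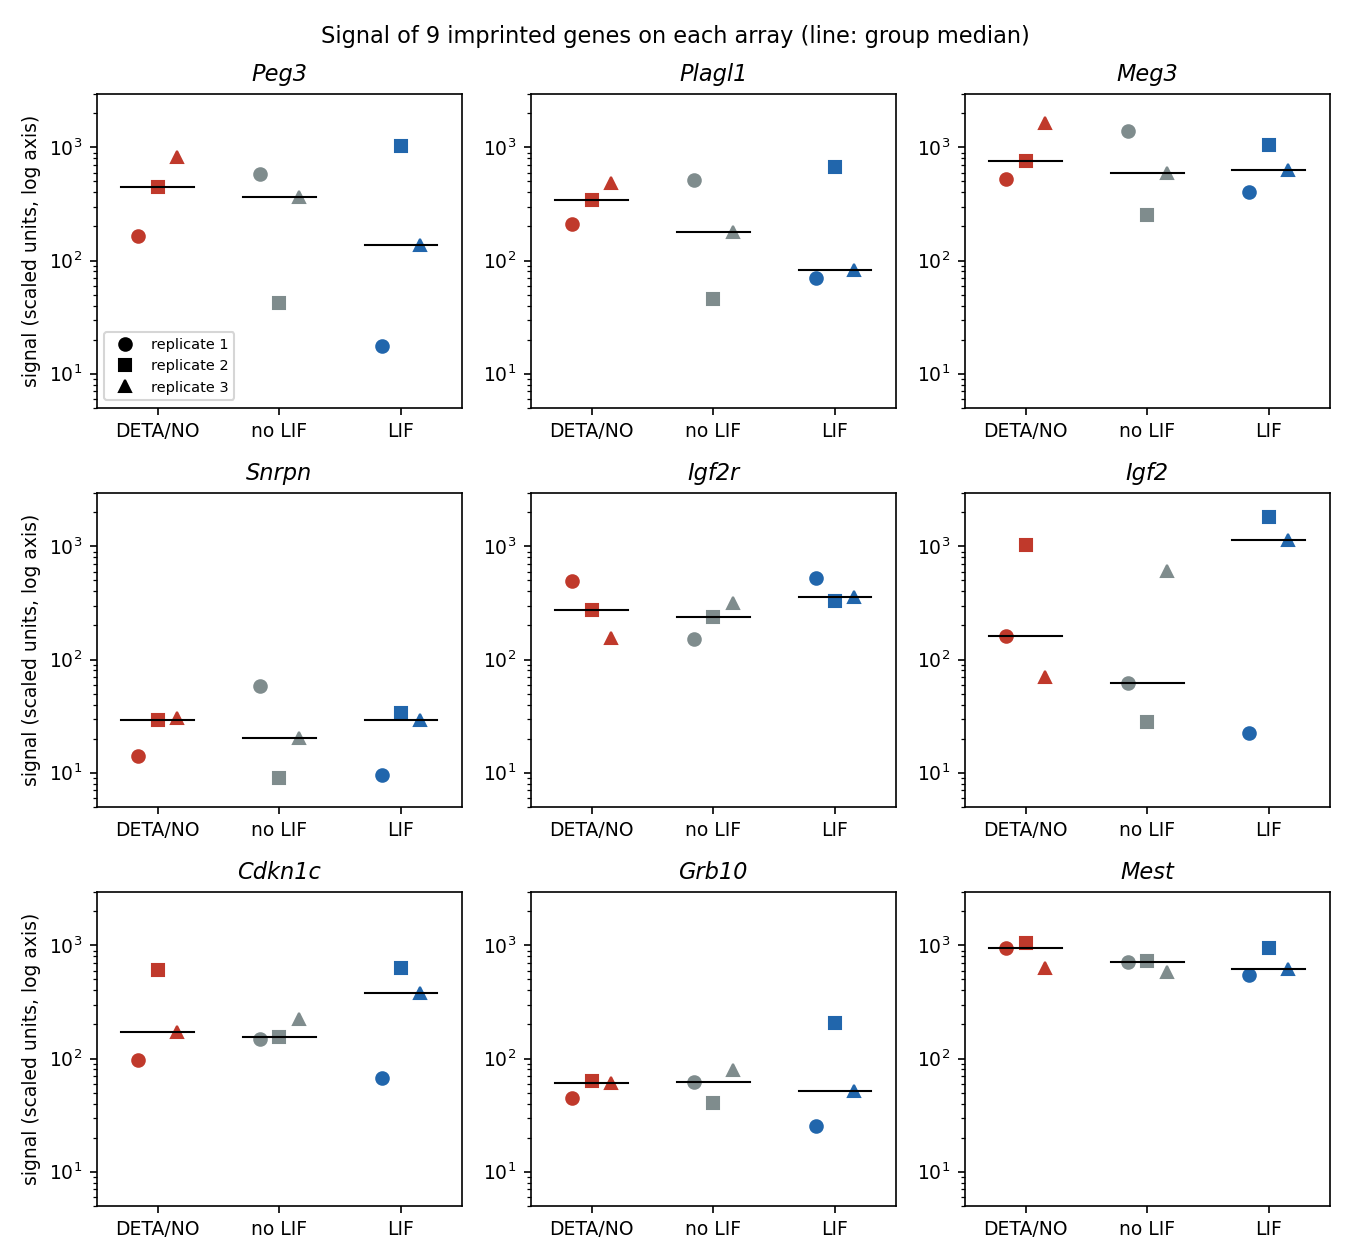
Signal of the probe set that stands for each of 9 imprinted genes, on a log axis, for the 3 arrays of each group, with the replicate as the symbol and the group median as a line. Igf2, Peg3 and Plagl1 spread widely inside each group, and Mest stays between 552 and 1043 on all 9 arrays.

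Member probe sets whose groups did not overlap were few. They numbered 2 of 24 for no LIF against LIF (7.6% of all probe sets), 4 of 24 for DETA/NO against no LIF (8.92% of all) and 1 of 24 for DETA/NO against LIF (5.98% of all). For no LIF against LIF, 1 of the 2 was Igf2r, whose protein carries IGF2 to the lysosome for breakdown. The other was a Meg3 probe set, 1436057_at, and in DETA/NO against no LIF all 4 were of Meg3. The 1 in DETA/NO against LIF was Meg3 again, 1452905_at, with signals of 888, 1039.6 and 1281 in DETA/NO, 1081, 326 and 409 in no LIF, and 750.0, 818 and 444 in LIF.

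The question that the comparisons leave is which of these genes follow the pluripotency state of a culture and which do not. The state was measured as a naive pluripotency score, the mean over 13 genes of the naive network, Klf4, Esrrb and Tbx3 among them, of log2 signal minus the gene's mean over the arrays. No imprinted gene is in it. It was 0.54, -0.35 and -1.17 in DETA/NO, -1.32, 0.88 and -0.09 in no LIF, and 0.95, -0.01 and 0.57 in LIF, replicates 1, 2 and 3 in that order. The alike pair had the 2 lowest scores and LIF replicate 1 and no LIF replicate 2 the highest, so the score crossed the groups.

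Of the 24 member probe sets, 9 followed this score in limma's regression at an adjusted p under 0.05, against 18.1% of all probe sets tested. The share of all that fell as the score rose was 7.31%, and 8 members did so, 3 of Peg3, 3 of Meg3 and 1 each of Snrpn and Plagl1. The share of all that rose with the score was 10.8%, and 1 member, an Igf2r probe set, did so. The median size of r was 0.58 over the 24 members and 0.51 over all tested probe sets. The calls were lost without the alike pair, and most of the correlations were not, though r over 7 arrays was given no test. The median size of r without the pair was 0.53 over the 24 members and 0.40 over all tested probe sets. Over the 7 other arrays r was -0.73 to -0.89 for the 3 called Peg3 probe sets, -0.81 for Plagl1, -0.78 for Snrpn, -0.56 to -0.77 for the 3 of Meg3 and 0.40 for Igf2r, while the median SE of a slope over all probe sets was 0.42, against 0.22 over 9 arrays. Without both of its arrays 0 of 24 members were called and 9 of all probe sets (0.0302%), with 11 members and 12.1% of all at an unadjusted p under 0.05. Without DETA/NO replicate 3 alone 0 members and 751 of all were called, and without no LIF replicate 1 alone 3 members and 733 of all. Regression on a score of the core factors Pou5f1, Nanog and Sox2 in place of the naive genes called 0 members and 0 of all.

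Peg3, a zinc finger gene read from the paternal copy and required for normal growth and maternal care, was lower on arrays with a higher score. Its probe set 1433924_at had signals of 163, 446 and 823 in DETA/NO, 583, 42.1 and 365 in no LIF, and 17.4, 1029.7 and 136 in LIF. It was lowest on LIF replicate 1 and no LIF replicate 2, the arrays with the highest naive scores, and the 3 groups overlapped. The log2 signal fell by 1.88 ± 0.40 (SE) per unit of score, with limma's adjusted p = 0.0102. Pearson's r was -0.81 (exact permutation p = 0.00848) and Spearman's rho -0.82 (exact permutation p = 0.0108) over 9 arrays, two-sided, and r was -0.89 over the 7 arrays left without the alike pair, which were also the 2 farthest from the median score. The other tested Peg3 probe sets, 1417355_at and 1417356_at, gave r = -0.83 each.

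Plagl1, a paternally read zinc finger regulator of a network of imprinted genes, moved almost as Peg3 did. Probe set 1426208_x_at had signals of 209, 345 and 488 in DETA/NO, 517, 45.8 and 179 in no LIF, and 70.6, 674 and 82.4 in LIF. Again no LIF replicate 2 and LIF replicate 1 were lowest, and LIF replicate 2, which had low Socs3, was highest. The slope was -1.34 ± 0.30 (SE) per unit of score with limma's adjusted p = 0.0115, and r was -0.81 both over 9 arrays (exact permutation p = 0.00922) and over 7. A dim Plagl1 probe set, 1438588_at, went the other way, with r = 0.60 and no call (limma's adjusted p = 0.140), and had signals between 0.63 and 22.1. The Plagl1 value therefore rests on 1 probe set.

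Meg3 is a maternally read long noncoding RNA of the Dlk1-Dio3 domain, whose silencing in reprogrammed stem cells is known to limit what they can form. Its brightest probe set on average, 1439380_x_at, had signals of 522, 757 and 1646 in DETA/NO, 1394, 255 and 589 in no LIF, and 406, 1062 and 629 in LIF. The alike pair was highest and no LIF replicate 2 lowest. The slope was -0.92 ± 0.17 (SE) per unit of score with limma's adjusted p = 0.00536, and r was -0.90 over 9 arrays (exact permutation p = 0.00101; rho -0.85, exact permutation p = 0.00607) and -0.77 over 7. Probe sets 1452183_a_at and 1426758_s_at were called as well, with r = -0.86 and -0.78. Probe set 1452905_at, nearly as bright (mean signal 782 against 807), was not called (limma's adjusted p = 0.0852). It had r = -0.66 over 9 arrays and -0.37 over 7. Nor was 1436713_s_at (mean signal 315), with r = -0.43 over 9 arrays and 0.15 over 7. The relation therefore differed between the brighter Meg3 probe sets.

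Snrpn, a paternally read small nuclear ribonucleoprotein gene of the Prader-Willi domain, was read here by 1 dim probe set, since 6 more are shared with the symbol Snurf and were not used. It had signals of 14.1, 29.4 and 30.2 in DETA/NO, 58.3, 9.03 and 20.3 in no LIF, and 9.47, 33.4 and 29.4 in LIF. No LIF replicate 1 was highest and LIF replicate 1 and no LIF replicate 2 lowest. The slope was -0.77 ± 0.22 (SE), limma's adjusted p = 0.0281, with r = -0.83 over 9 arrays (exact permutation p = 0.00670) and -0.78 over 7. The call was also lost without no LIF replicate 2 (limma's adjusted p = 0.0533), without LIF replicate 1 (limma's adjusted p = 0.0960) or with array brightness as a covariate (slope -0.71 ± 0.25 (SE), limma's adjusted p = 0.107).

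Igf2r was the member that went up with the naive score. Probe set 1424112_at had signals of 496, 273 and 155 in DETA/NO, 151, 240 and 319 in no LIF, and 528, 328 and 356 in LIF. Its 3 LIF values lay above all no LIF values, by a log2 difference of -0.80 ± 0.47 (SE) for no LIF minus LIF with limma's adjusted p = 0.973, and overlapped those of DETA/NO. The slope on the score was 0.62 ± 0.17 (SE), limma's adjusted p = 0.0267, with r = 0.82 over 9 arrays (exact permutation p = 0.00831). Over 7 arrays r was 0.40, so the relation rested on the alike pair, and without LIF replicate 1 limma's adjusted p was 0.0992. The other Igf2r probe set, 1424111_at, had r = 0.61 and was not called (limma's adjusted p = 0.160).

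**Figure D2:**
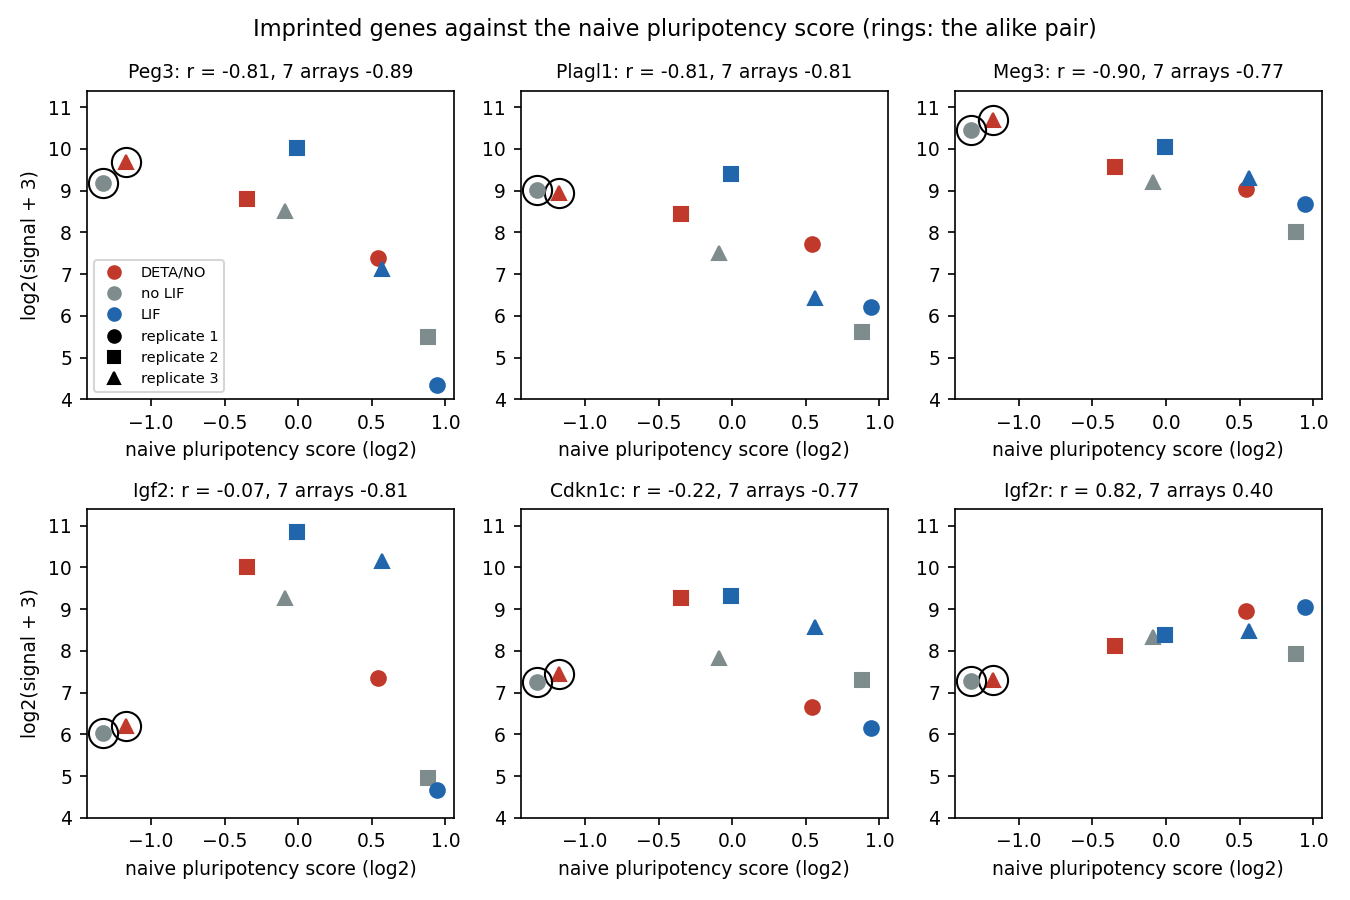
Log2(signal + 3) of 6 imprinted genes against the naive pluripotency score of each array, with the group as colour, the replicate as symbol and rings round the alike pair. Peg3, Plagl1 and Meg3 run downward with or without the ringed arrays, and Igf2 and Cdkn1c do so over the other 7 arrays while the ringed pair lies low for Igf2 and in the middle of the range for Cdkn1c.

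Peg3, Plagl1, Meg3 and Snrpn also moved with each other, given here as a description with no test. Peg3 and Plagl1 had r = 0.92 and rho = 0.95 over 9 arrays, which placed Plagl1 at rank 172 among the 13375 other tested genes ordered by r with Peg3. Meg3 and Snrpn had r = 0.88 and rho = 0.95. All points share arrays and their brightness. Genes of the primed epiblast, the state that follows the naive one, ran high on the same arrays. Their summed signals over 8 of 8 listed genes were 2634 to 5941 in DETA/NO, 809 to 6660.4 in no LIF and 614 to 3211 in LIF. Dnmt3b alone gave 3659 of the 5941 on DETA/NO replicate 3 and 4360 of the 6660.4 on no LIF replicate 1. The mean log2 score of the 8 genes had r = 0.87 with Peg3, 0.91 with Plagl1, 0.86 with Meg3 and 0.74 with Snrpn. A score of 8 tested genes of primitive streak and mesoderm had r = 0.81, 0.94, 0.88 and 0.76 with the same genes in that order. The relation was therefore not particular to the primed epiblast list. The genes most like Peg3 over the 9 arrays were Ptpn13 (r = 0.99), Cul4b (r = 0.98) and Lrrfip1 (r = 0.98), and those most like Plagl1 were Gm16136, Cdk14 and Meis2 (r = 0.97 each).

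Igf2, the paternally read fetal growth factor, had the widest spread of the 9 genes and hardly followed the naive score over the 9 arrays. Probe set 1448152_at had signals of 160, 1034 and 70.6 in DETA/NO, 62.5, 28.0 and 610.1 in no LIF, and 22.4, 1836 and 1144 in LIF. LIF replicates 2 and 3 and DETA/NO replicate 2 were above 1000, and no LIF replicate 2 and LIF replicate 1 below 30. The group means were 421 ± 532 in DETA/NO, 234 ± 327 in no LIF and 1000.5 ± 915 in LIF (SD, n = 3 each), so the SD was as large as the mean or nearly so. The SD of log2 signal over the 9 arrays was 2.39, at the 99.9th percentile of the 7171 tested probe sets of like level, within 1 log2 unit of its mean. The second Igf2 probe set, 1415931_at, was not tested, with signals from 0.55 to 16.2.

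The log2 difference of Igf2 was -1.81 ± 1.62 (SE) for no LIF against LIF, the largest among the probe sets that stand for the 9 genes, with limma's adjusted p = 0.973. It was 1.11 ± 1.62 (SE) for DETA/NO against no LIF, again the largest among those 9, though other Meg3 and Peg3 probe sets had larger differences there, with limma's adjusted p = 0.963. Both were smaller than or near 1 SE. With both replicates 2 left out the difference for no LIF against LIF was 0.23, of opposite sign. In DETA/NO against LIF the largest difference among the same 9 probe sets was that of Peg3 1433924_at, 1.46 ± 1.32 (SE) with limma's adjusted p = 1.00, and with the naive score as a covariate it was -0.17.

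Igf2 had r = -0.07 with the naive score over 9 arrays (exact permutation p = 0.854; rho = -0.22, exact permutation p = 0.581), so the score took up 0.468% of its variance. This independence also rested on the alike pair, which had low Igf2 and a low score. Over the other 7 arrays r was -0.81. With the core factor score r was -0.76 over 9 arrays, and the limma slope on that score was not called for any member. Cdkn1c likewise had r = -0.22 over 9 arrays (exact permutation p = 0.570) and -0.77 over 7, and Grb10 had -0.40 over 9 (exact permutation p = 0.300) and -0.70 over 7.

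Cdkn1c encodes the cell cycle inhibitor p57, is read from the maternal copy and restrains growth of the embryo and placenta. Its signals were 98.03, 609 and 172 in DETA/NO, 150.1, 154 and 224 in no LIF, and 67.9, 632 and 378 in LIF. The arrays above 300, DETA/NO replicate 2 and LIF replicates 2 and 3, were the 3 with the most Igf2. Cdkn1c and Igf2 had r = 0.87 and rho = 0.87 over 9 arrays, r = 0.88 over 7, and r = 0.88 for what the naive score left over, and Igf2 stood at rank 52 of the 13375 other genes for Cdkn1c. Both genes lie on chromosome 7, in neighbouring imprinted domains. Over 7 arrays Igf2 had r = 0.99 with Snrpn and 0.90 with Peg3, both also on chromosome 7, and 0.90 with Meg3 of chromosome 12. It had lower r with Grb10, Plagl1, Mest and Igf2r. For what the naive score left over, Peg3 of chromosome 7 and Grb10 of chromosome 11 had r = 0.90. The part of position in these values was not tested.

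Grb10, an adaptor that dampens insulin and growth factor signalling, had signals of 44.7, 62.7 and 61.4 in DETA/NO, 62.5, 40.1 and 80.0 in no LIF, and 25.4, 207 and 51.1 in LIF for probe set 1425458_a_at. LIF replicate 2 was highest, and the other 8 arrays lay between 25.4 and 80.0. Its dimmer probe set 1430164_a_at had the smallest member p for DETA/NO against LIF, a log2 difference of 0.86 ± 0.50 (SE) with limma's adjusted p = 1.00.

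**Figure D3:**
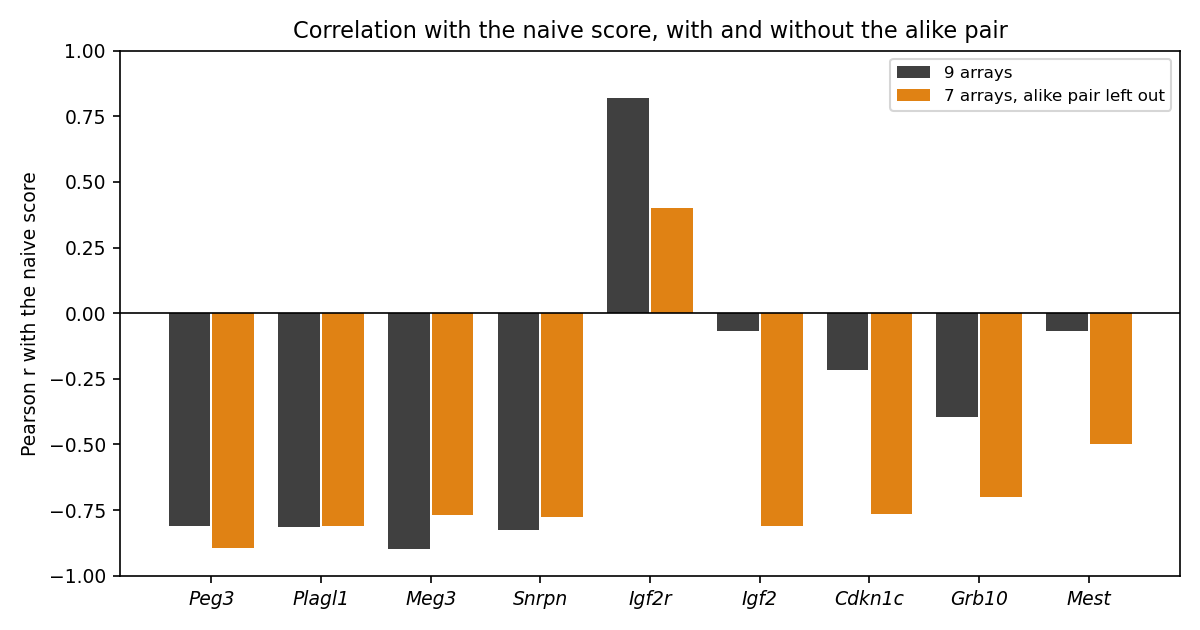
Pearson's r of 9 imprinted genes with the naive pluripotency score over all 9 arrays and over 7 arrays without the alike pair. Peg3, Plagl1, Meg3 and Snrpn stay between -0.77 and -0.90, Igf2 and Cdkn1c turn strongly negative without the pair, and Igf2r drops to 0.40.

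Igf2 ran with a score made of simple keratins and trophoblast genes. Of the genes in it only the keratins were called in the regression on that score, given below. Of 11 listed trophoblast genes 9 had a probe set and 7 were tested (Cdx2, Tfap2c, Hand1, Krt7, Krt8, Krt18 and Plac1), and Krt8 and Krt18 made up most of the summed signal, which was 3930 to 14113 in DETA/NO, 878 to 11469 in no LIF and 775 to 11569 in LIF. Krt18 itself had signals of 2617, 6570 and 1647 in DETA/NO, 1536, 208 and 5928 in no LIF, and 160, 6086 and 2593 in LIF. The trophoblast factor Cdx2 had signals of 1.91, 106 and 55.2 in DETA/NO, 39.4, 1.33 and 28.5 in no LIF, and 6.20, 189 and 29.2 in LIF. Plac1 had 20.5, 42.8 and 7.20 in DETA/NO, 9.35, 9.26 and 5.97 in no LIF, and 9.58, 41.2 and 57.6 in LIF. Hand1 had signals of 18.5 to 48.2 and Tfap2c of 130.2 to 431 over the 9 arrays, and Elf5 was not among the tested genes.

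The mean log2 score of the 7 genes had r = 0.96 with Igf2 over 9 arrays (exact permutation p = 0.000113; rho = 0.93, exact permutation p = 0.000750). It was 0.93 without the 2 arrays farthest from the median of that score, 0.98 without the alike pair and 0.94 over the 6 dimmer arrays. Other members followed the score too once the alike pair was left out. Over those 7 arrays r was 0.97 for Snrpn, 0.94 for Peg3 and Meg3, 0.87 for Cdkn1c, 0.84 for Plagl1 and 0.80 for Grb10. It was 0.49 for Mest and -0.26 for Igf2r. Over 9 arrays Peg3 had r = 0.73, Snrpn and Plagl1 0.60 and Meg3 0.48. The separation of Peg3, Snrpn, Plagl1 and Meg3 from Igf2 on this score therefore rested largely on the alike pair. This score was picked for a test after its values were seen, among 45 relations of the 9 genes with marker scores. In limma's regression on it, 19 of the 29811 tested probe sets were called (0.0637%), each of them higher with the score. Igf2 was the 1 member among them, with a slope of 2.04 ± 0.21 (SE) and an adjusted p = 0.0170. Of the 19, 5 belonged to Krt7, Krt8 and Krt18, which are in the score. Cdx2, Tfap2c, Hand1 and Plac1, also in the score, were not called. The other named genes besides Igf2 were 3830417A13Rik, Ahnak, Anxa1, App, Cebpa, Cited1, Cryab, Dysf, Gata3, Kitl, Vgf and Vgll3.

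The call was lost when any 1 of DETA/NO replicate 2, no LIF replicate 2, no LIF replicate 3 or LIF replicate 1 was left out, with 0 members and 0 of all probe sets called each time. Without the alike pair 134 of all probe sets (0.449%) and 2 members were called, Igf2 (adjusted p = 0.00703) and Peg3 (adjusted p = 0.0220 by limma). Cdkn1c had r = 0.88 with the score (exact permutation p = 0.00260) and Grb10 r = 0.78 (exact permutation p = 0.00712), with limma's adjusted p = 0.180 and 0.578. The part of other cell types in these values was not tested. The 3 genes most like Igf2 over the arrays were Eps8l2 (r = 0.97), Cryab (r = 0.97) and Sdccag8 (r = 0.96).

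**Figure D4:**
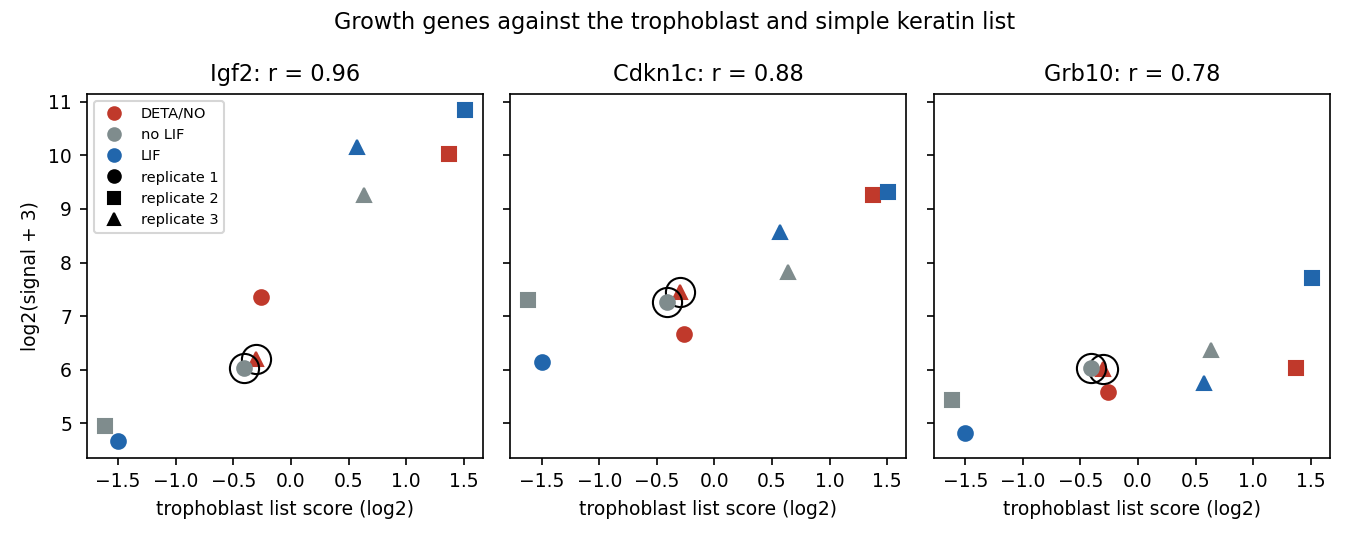
Log2(signal + 3) of Igf2, Cdkn1c and Grb10 against the score of 7 trophoblast and simple keratin genes on each array, with the group as colour, the replicate as symbol and rings round the alike pair. Igf2 climbs with the score (r = 0.96), Cdkn1c less tightly (r = 0.88), and Grb10 over a narrower range of levels (r = 0.78, and 0.77 without the 2 arrays farthest from the median score).

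Mest, a paternally read hydrolase-like gene of mesoderm and placenta, was the steady member. Its signals were 954, 1043 and 627 in DETA/NO, 711, 727 and 583 in no LIF, and 552, 953 and 623 in LIF. The groups overlapped and the highest array was 1.88-fold the lowest on the signal + 3 scale. The SD of log2 signal was 0.34, at the 15.2th percentile of 2982 tested probe sets of like level. Mest had r = -0.07 with the naive score (exact permutation p = 0.859) and -0.50 over 7 arrays, so it shared with Igf2 a low r but not a wide spread.

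The 11 Meg3 probe sets fell into unlike patterns. The 3 that were called on the naive score, 1439380_x_at, 1452183_a_at and 1426758_s_at, had r = 0.94 to 0.97 with each other. Probe sets 1428764_at and 1452906_at had r = 0.96 with each other, r = 0.42 or less with 1439380_x_at, and r = -0.13 and -0.22 with the naive score. The files do not say which Meg3 transcript each probe set reads.

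Probe set 1452906_at had the smallest p of any member for DETA/NO against no LIF and for no LIF against LIF. Its signals were 141, 71.8 and 121 in DETA/NO, 46.1, 7.46 and 15.0 in no LIF, and 122, 49.0 and 28.0 in LIF. The 3 DETA/NO arrays lay above the 3 no LIF arrays, with group means of 111 ± 35.4 in DETA/NO and 22.9 ± 20.5 in no LIF (SD, n = 3 each). The log2 difference was 2.39 ± 0.65 (SE) with limma's adjusted p = 0.929, so it did not pass the test. For no LIF against LIF it was -1.48 ± 0.65 (SE) with limma's adjusted p = 0.973.

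The other 3 member probe sets at an unadjusted p under 0.05 for DETA/NO against no LIF were also of Meg3. Probe set 1428764_at averaged 68.6 ± 15.3 in DETA/NO and 18.5 ± 15.3 in no LIF, 1429257_at averaged 86.3 ± 29.6 in DETA/NO and 23.7 ± 16.4 in no LIF, and 1436057_at averaged 38.1 ± 7.83 in DETA/NO and 17.4 ± 3.98 in no LIF (SD, n = 3 each). Their log2 differences were 1.94, 1.98 and 1.01, each with an adjusted p = 0.929 by limma. The 3 probe sets that followed the naive score had smaller differences in this comparison, of 0.26 to 0.54. All 11 Meg3 probe sets had a positive difference, from 0.26 to 2.39, so its size varied between them, and none was called.

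Array brightness moved with these probe sets. Probe set 1452906_at was high on DETA/NO replicate 1 and LIF replicate 1, both of the brighter arrays, but also on DETA/NO replicate 3, which is not. With the log2 median signal as a covariate its difference for DETA/NO against no LIF was 2.23 ± 0.72 (SE), limma's adjusted p = 0.456. With that covariate in the regression on the naive score, 8 of 24 members and 2160 of all 29811 probe sets were called. Without it the counts were 9 members and 5406 of all. Of the 8 members, 5 were probe sets of 1 gene, Meg3. Probe sets 1452906_at and 1428764_at were now among them, with slopes of -1.28 ± 0.34 and -1.04 ± 0.27 (SE) and limma's adjusted p = 0.0406 and 0.0366. The same covariate ended the calls of Snrpn (limma's adjusted p = 0.107), Igf2r 1424112_at (0.168), Peg3 1433924_at (0.0507) and Meg3 1426758_s_at (0.0655).

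**Figure D5:**
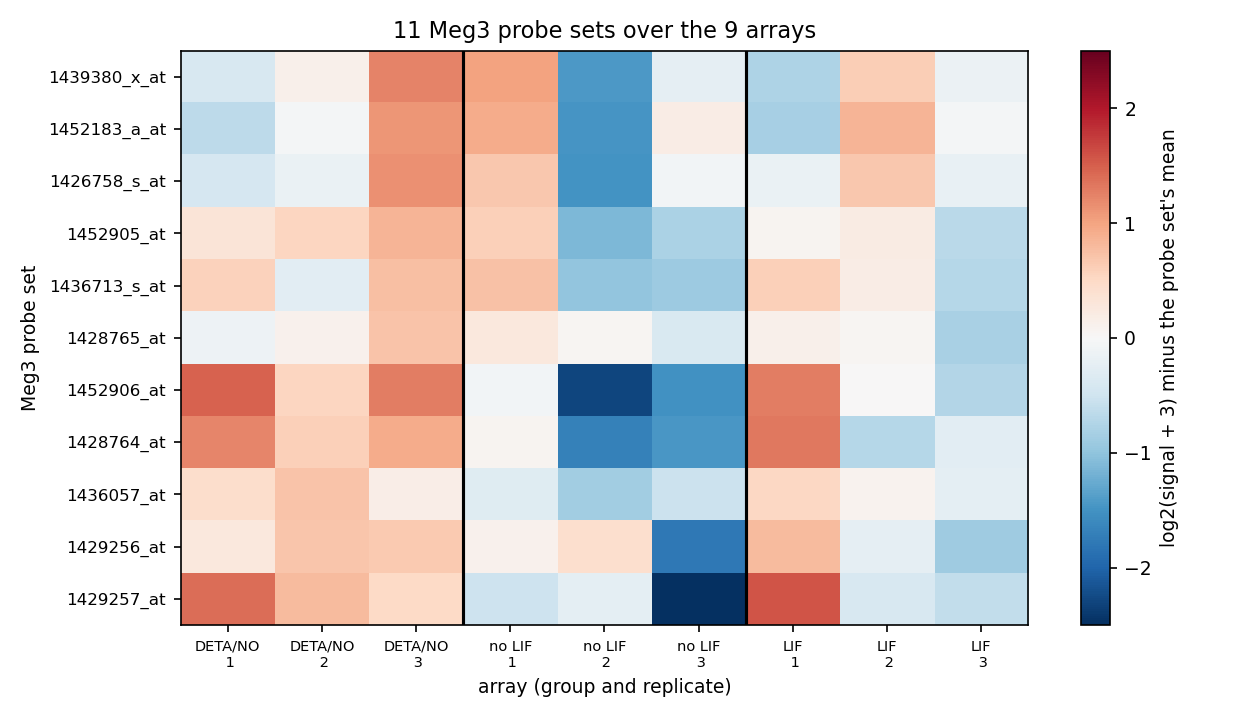
Log2(signal + 3) of 11 Meg3 probe sets on the 9 arrays, minus each probe set's mean, with DETA/NO arrays on the left. Rows run from the most to the least like 1439380_x_at at the top, and 1452906_at and 1428764_at are high on all DETA/NO arrays and LIF replicate 1 and low on no LIF replicates 2 and 3.

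Neighbours in the same imprinted domains were read from a list of 24 genes, of which 20 had a probe set and 17 were tested. In the Dlk1-Dio3 domain, Rian and Mirg, noncoding RNAs made downstream of Meg3 on the same strand, did not follow the naive score (r = 0.37 and 0.38). Mirg had signals of 617, 615 and 161 in DETA/NO, 135, 160 and 91.5 in no LIF, and 624, 108 and 203 in LIF. It stood between 615 and 624 on the 3 brighter arrays and between 91.5 and 203 on the other 6. Dlk1, the protein gene read from the paternal copy, had signals of 16.4 to 80.3 and r = -0.24 with the score.

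In the Kcnq1 domain beside Igf2, the antisense RNA Kcnq1ot1 had signals of 738, 259 and 130 in DETA/NO, 88.9, 99.1 and 125 in no LIF, and 471, 109 and 276 in LIF, highest on 2 of the brighter arrays, and was not called on the score. Slc22a18, a transporter gene, was called, at r = 0.87 (exact permutation p = 0.00206) and limma's adjusted p = 0.00491, while Kcnq1, Phlda2 and Ascl2, the last a trophoblast regulator, were not. Slc22a18 had 106, 52.1 and 1.93 in DETA/NO, 11.1, 106 and 61.9 in no LIF, and 199, 18.6 and 44.3 in LIF. It was lowest on the alike pair, unlike Cdkn1c and Igf2.

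Elsewhere, Cobl, an actin nucleator beside Grb10, ran with the naive score at r = 0.99 over 9 arrays (exact permutation p = 1.38e-05) and r = 0.98 over 7. Its slope was 1.48 ± 0.13 (SE) with limma's adjusted p = 0.000167, and its signals were 699, 308 and 93.7 in DETA/NO, 88.5, 927 and 332 in no LIF, and 837, 411 and 584 in LIF. Grb10 next to it had r = -0.40. Magel2, of the Prader-Willi domain with Snrpn, was lower with the score (r = -0.85, limma's adjusted p = 0.0132), but was dim, with signals of 2.36 to 52.6. Its neighbour Ndn had r = -0.67 and was not called. Mkrn3, Ube3a, Copg2, Klf14, Airn and Ddc were not called either.

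Over a wider list of 77 other imprinted genes, those neighbours included, 64 had a probe set and 51 were tested. None of the 51 was called by limma in the 3 group comparisons, as 0 of all probe sets were. At an unadjusted p under 0.05 there were 1, 3 and 2 for no LIF against LIF, DETA/NO against no LIF and DETA/NO against LIF. The shares of all probe sets at that level were 1.54%, 5.02% and 1.94%. The smallest p values belonged to Atp10a, Calcr, Ube3a, Mirg and Kcnq1ot1. Atp10a had signals of 31.1, 71.0 and 63.8 in DETA/NO, 63.3, 19.2 and 47.3 in no LIF, and 5.43, 32.7 and 9.99 in LIF, with a log2 difference of 1.81 ± 0.62 (SE) for DETA/NO against LIF and limma's adjusted p = 1.00. On the naive score 15 of 51 were called, 10 higher and 5 lower, against 18.1% of all. The 51 were read by 1 probe set each, while that share is of every tested probe set.

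Genes that keep imprints and DNA methylation moved with the naive score in both directions. Of 19 tested, 9 were called, 4 higher and 5 lower, against 18.1% of all probe sets called, 10.8% higher and 7.31% lower. Each of the 19 was read by its brightest tested probe set, while the shares are of every tested probe set. Dppa3, 1 of the 19, is also in the naive score, and was not called (limma's adjusted p = 0.319). Without the alike pair limma called 9 of all 29811. It called 0 keepers in any group comparison, also at an unadjusted p under 0.05. Among the 6 brightest, Dnmt3b, a de novo methyltransferase, and Hells, a chromatin remodeller needed for methylation, were lower with the score (r = -0.90 and -0.88 over 9 arrays, -0.94 and -0.46 over 7). Uhrf1, which guides maintenance methylation, was higher (r = 0.80 over 9 arrays and 0.48 over 7), and Trim28, Eed and Dnmt3l were not called. Zfp57 and Zfp445, singled out after their values were seen, went opposite ways. Zfp57 had signals of 107, 113 and 61.1 in DETA/NO, 68.0, 179 and 128 in no LIF, and 204, 113 and 206 in LIF (r = 0.91, limma's adjusted p = 0.0134). Zfp445 had 157, 206 and 800.1 in DETA/NO, 797, 121 and 165 in no LIF, and 93.4, 297 and 207 in LIF (r = -0.93, limma's adjusted p = 0.00232), and was highest on the alike pair.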

How the data were processed

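Total RNA of 9 samples was hybridised to Affymetrix Mouse Genome 430 2.0 arrays. The deposited values are intensity signals on a linear scale, which per the labels came from GeneChip Operating System 1.4.0.036 with global scaling. MAS5 is the tool named in the submitters' processing notes. The 2% trimmed mean was 100 on every array. Of the probe sets, 34945 carried 1 gene symbol, 932 several and 9160 none in the platform annotation, and 64 were controls. Symbols were checked by gene ID against RefSeq (34741 matched, 0 changed).

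Signals were used as deposited, as log2(signal + 3). Probe sets at or above the array's 40th percentile on at least 3 arrays were tested. The brightest tested probe set stands for a gene. Tests were limma 3.58.1 in R 4.3.3 with a mean-variance trend, 1 fit over all 9 arrays, with Benjamini-Hochberg adjustment across everything tested, and were tested on simulated data. Correlations over arrays have exact two-sided permutation tests over 362880 orders. The 10 members are always named, as are tested neighbours in their domains, the 5 other imprinted genes with the smallest p, the 6 brightest imprint keepers and the 3 genes most alike to each of the 3 most variable members. Members and lists were chosen with earlier results of these data known. Same-numbered replicates had deviations correlated at -0.60 to 0.65, so the numbers were not taken to pair the arrays. Alternatives were another pseudocount, no filter, quantile normalization, the replicate block, brightness or the naive score as a covariate, and arrays left out.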

Additional observations from a re-analysis of the deposited data

How the results depend on the processing

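The count of 0 members called in each of the 3 group comparisons held under all 19 alternatives run for each. Each of these fits also called 0 of all probe sets, so the count says nothing particular to the imprinted genes. With the replicate number as a block, limma again called 0 members and 0 of all probe sets in each comparison, with 493, 1602 and 471 of all at an unadjusted p under 0.05 for no LIF against LIF, DETA/NO against no LIF and DETA/NO against LIF. The 9 members called on the naive score became 0 with the core factor score, 0 without the alike pair (the same arrays as the 2 farthest from the median score), and 0 to 9 with single arrays left out. The 1 member called on the trophoblast score, a test added after seeing the data, became 2 without the alike pair and 0 to 1 with single arrays left out. The log2 difference of Igf2 for no LIF against LIF turned to 0.23 without both replicates 2, and that of Peg3 for DETA/NO against LIF to -0.17 with the naive score as a covariate. Of the 9 genes' differences, 8, 6 and 7 changed sign under at least 1 of 20 alternatives in the 3 comparisons. The correlation of Igf2r with the core factor score in place of the naive one was -0.22. That of Mest with the naive score was 0.079 after quantile normalization. With single arrays left out, r ranged from -0.29 to 0.17 for Igf2, -0.24 to 0.16 for Mest and -0.40 to 0.023 for Cdkn1c. The cause of these turns was not tested. Precision is limited by 3 arrays a group and, for dim probe sets such as that of Snrpn, by signal near background.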
